A study of Saccharomyces cerevisiae with 6 samples.

Results

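The genes of upper glycolysis, from the phosphorylation of glucose to fructose 1,6-bisphosphate, were followed in budding yeast grown with and without glycolaldehyde, a small reactive hydroxyaldehyde. The set was a fixed list of 9 genes, chosen by name: the hexokinases HXK1 and HXK2, the glucokinase GLK1, the isomerase PGI1, the phosphofructokinase subunits PFK1 and PFK2, the 6-phosphofructo-2-kinases PFK26 and PFK27, and the fructose-1,6-bisphosphatase FBP1. All 9 were found through the systematic name of their open reading frame, with 1 probe each, among 6225 gene identifiers on the array. Transcript levels were compared between 3 untreated samples and 3 samples that received 10 mM glycolaldehyde. All samples were of BY4743, which is known as a diploid laboratory strain and which the labels list as haploid. Per the labels, cells stood at 30 °C for 4 h, without shaking, in synthetic medium with 2% glucose. The growth entry calls this anaerobic. The protocol also allows the reading that the aldehyde was already in the overnight culture. The replicates were started from 3 independent cultures, and the RNA of every sample had a single-colour Agilent array of its own.

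Glucose that enters a yeast cell is phosphorylated by a hexokinase or glucokinase, isomerised by phosphoglucose isomerase, and phosphorylated again by phosphofructokinase, the step most strongly controlled by metabolites. The 6-phosphofructo-2-kinases make fructose 2,6-bisphosphate, a signal metabolite that activates phosphofructokinase and inhibits fructose-1,6-bisphosphatase, the enzyme that runs the opposite reaction in gluconeogenesis. In cells growing on glucose, HXK2 is the predominant hexokinase, and HXK1, GLK1 and FBP1 are known as genes that glucose represses.

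The value table and the scanner files assign some arrays to different samples. The group comparisons below depend on which assignment is used, except those from the 4 arrays on whose group both agree. Each column of the deposited value table equalled the spot means of 1 scanner file at all 6256 probes (relative tolerance 1e-06). For 3 of the 6 samples, that file was attached to a different sample, and for 2 of these, untreated replicate 3 and glycolaldehyde replicate 1, to a sample of the other group. The values below follow the value table, with groups from the sample titles. The free-text descriptions name the opposite treatment for every sample, and grouped by them every rise below would be a fall and every fall a rise; each direction given here holds for the titles' grouping. Grouped by the scanner files as attached, limma called 0% of genes (0 of 5971, with 131 at an unadjusted p under 0.05), and none of the 9 genes. The 4 arrays on which both records agree on the group are untreated replicates 1 and 2 and glycolaldehyde replicates 2 and 3, and results from them alone are given beside the main values. Arrays lay on 3 slides and were scanned on 2 days, with replicate 3 of both groups on the second day. Of the 2 arrays in dispute, glycolaldehyde replicate 1 lay on slide 2 and was scanned on day 1. The other, untreated replicate 3, was scanned on day 2, and by the scanner files as attached that day holds no untreated sample. Each value within a scan day or within slide 2 thus rests in part on a disputed array. Per array, 94.8% to 97% of probes exceeded background clearly, and saturation was marked at 0 spots. HIS3, LEU2 and URA3, deleted wholly or in part in this strain background, were well above background on 0 of 6 arrays. LYS2 and MET17, heterozygous in BY4743, were well above it on all 6. So were 12 of 12 genes specific to haploids or to 1 mating type, at 0.00587 to 0.252 times the array's 75th percentile. Genes of both mating types were among the 12, and ploidy was not tested.

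With glycolaldehyde, transcripts of 7 of the 9 genes were lower and those of 2 were higher. PFK1 and PFK2, which encode the α and β subunits of phosphofructokinase, fell to 59.4% and 61.6% of their untreated levels, and PGI1 fell to 67.5%. Among the sugar kinases, HXK1 rose 1.34-fold while GLK1 and HXK2 fell to 68.3% and 83.1%. Of the 6-phosphofructo-2-kinase genes, PFK26 rose 1.19-fold and PFK27 fell to 68.7%. FBP1 fell to 64%. All 9 passed limma at an adjusted p under 0.05, where 53% of all 5971 tested genes passed (29.6% higher, 23.4% lower). In all 9 the groups did not overlap, which held for 60.7% of all tested genes (33.7% with glycolaldehyde higher, 26.9% with it lower). In RNA from whole cultures, less transcript per cell and fewer cells that carry it cannot be told apart. A share this high over all genes means that a call alone says little about a gene, so the sizes below carry the description.

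**Figure D1:**
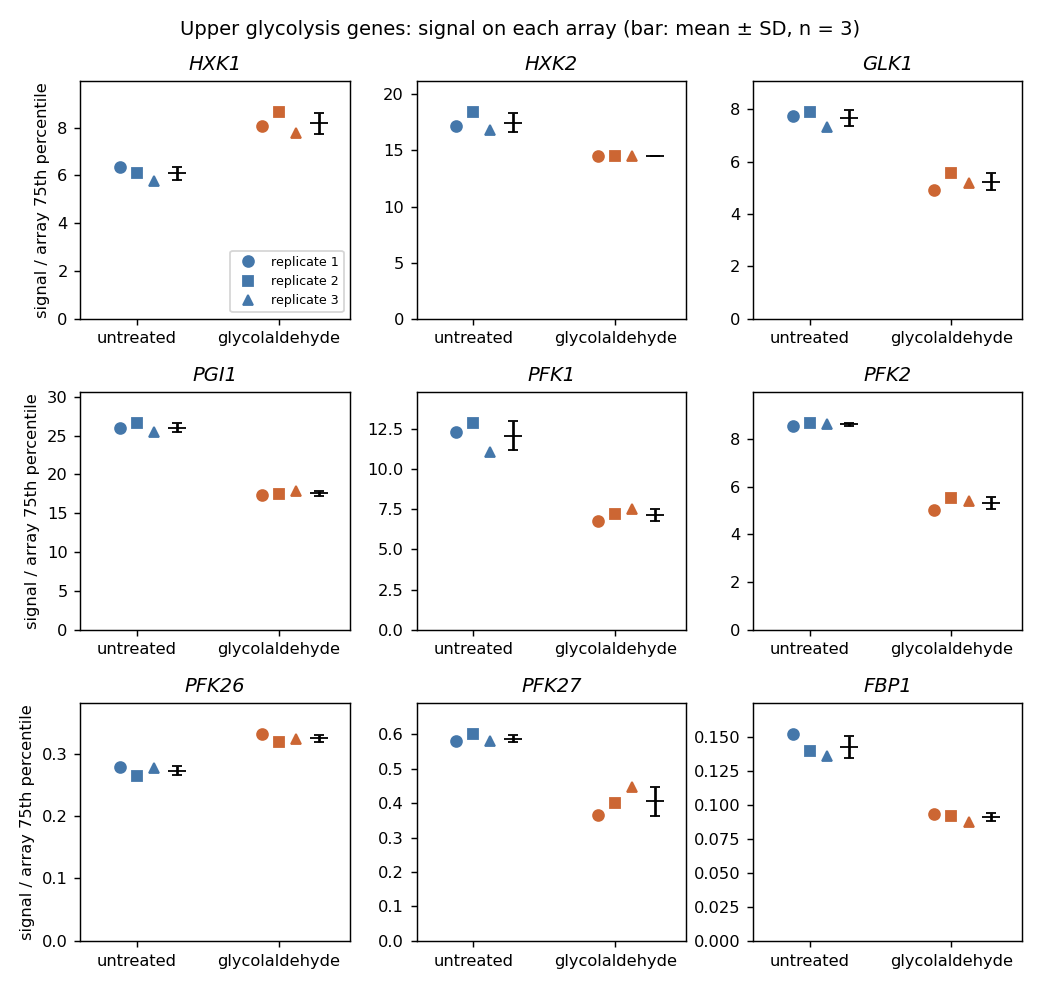
Signal of each of the 9 genes on every array, as a multiple of the array's 75th percentile (linear axes from 0), in untreated and glycolaldehyde samples; marker shapes are replicate numbers, and bars are the mean ± SD of 3 samples. HXK1 and PFK26 lie higher with glycolaldehyde, the other 7 genes lie lower, and no gene overlaps between groups.

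Signals are given as multiples of the 75th percentile of all probe signals on the same array, which is the scale between arrays used here. These values compare samples for 1 probe; levels of different genes are not compared, since probes differ in how brightly they bind. Log2 changes are glycolaldehyde minus untreated, with the moderated standard error of limma and 3 samples per group. An exact permutation test of 3 samples against 3 cannot give a p below 0.1, so p-values come from the fit across all genes.

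Transcripts of the glucose-phosphorylating enzymes moved in both directions. HXK2, the main hexokinase on glucose, which also takes part in glucose repression, had signals of 17.2, 18.4 and 16.8 in untreated replicates 1 to 3 and of 14.5, 14.5 and 14.5 in glycolaldehyde replicates 1 to 3. The treated samples lay closely together below every untreated sample. The change was -0.27 ± 0.06 (SE; limma adjusted p = 0.00517), the smallest fall of the 7 here and in all 23 fits other than that of the scanner files as attached. HXK1, the second hexokinase isoenzyme, had signals of 6.35, 6.12 and 5.77 in untreated samples and of 8.09, 8.65 and 7.78 with glycolaldehyde. It rose by 0.43 ± 0.06 (adjusted p = 0.0012), and the change was 0.42 within scan day 1 and 0.43 within scan day 2. HXK1 and HXK2 are close paralogs; their probe sequences were not compared here, and cross-hybridisation between them was not tested.

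GLK1, the glucokinase, which phosphorylates glucose and not fructose, had signals of 7.76, 7.90 and 7.31 in untreated samples and of 4.93, 5.58 and 5.19 with glycolaldehyde. The lowest untreated sample stood well above the highest treated one. GLK1 fell by 0.55 ± 0.07 (adjusted p = 0.000401). Its paralog EMI2 had signals of 2.75, 2.89 and 3.05 untreated and 2.15, 2.28 and 2.33 treated, and fell by 0.36 ± 0.06 (adjusted p = 0.00211). NGK1, which encodes a protein related in sequence to hexokinases, had a log2 change of -0.23 ± 0.09 and did not pass (adjusted p = 0.0619). Of the 23 fits, NGK1 passed in 7, among them the one with the replicate number as a block (adjusted p = 0.00928), and did not pass in 16, among them that of the 4 arrays on which the records agree (adjusted p = 0.312). EMI2 passed in all 23.

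Within single arrays the kinase genes shifted against each other. The log2 difference of HXK1 and HXK2 signals was higher by 0.69 with glycolaldehyde (group means -1.52 ± 0.08 untreated and -0.83 ± 0.08 treated, SD, n = 3; exact permutation p = 0.1, 0.15 adjusted over 6 gene pairs). The groups did not overlap. The difference of GLK1 and HXK2 was lower by 0.28 (-1.19 ± 0.04 and -1.47 ± 0.09; exact permutation p = 0.1, adjusted 0.15), again without overlap. These p-values are the smallest that 3 against 3 can give, so the pairs are described by their size against the spread: the HXK1 shift was 0.69 where the SD within groups was 0.0808.

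**Figure D2:**
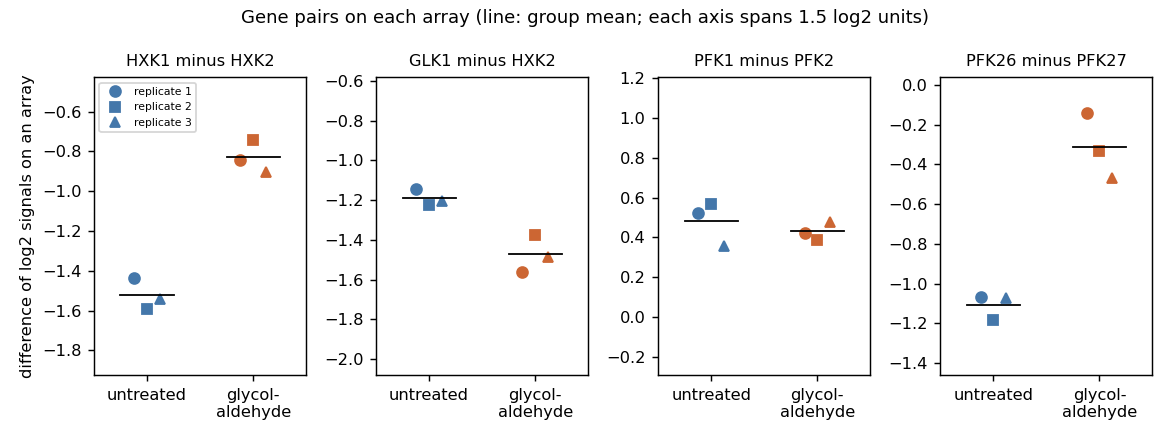
Difference of the log2 signals of 2 genes on the same array, for 4 gene pairs, in untreated and glycolaldehyde samples; lines are group means, and only the shift between groups is to be read, not the height of an axis. HXK1 against HXK2 shifted by 0.69 and PFK26 against PFK27 by 0.79, while PFK1 against PFK2 overlapped between groups.

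PGI1, phosphoglucose isomerase, is the only enzyme of its step in yeast. Its signals were 26.0, 26.6 and 25.4 in untreated samples and 17.4, 17.5 and 17.9 with glycolaldehyde, so that both groups were tight and far apart. PGI1 fell by 0.57 ± 0.05 (adjusted p = 0.000108), and by 0.60 within scan day 1 and 0.51 within scan day 2.

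The phosphofructokinase subunit genes had the largest falls of the set in 20 of those 23 fits. FBP1 fell more than PFK2 in the 4 agreed arrays (-0.70 against -0.66) and without glycolaldehyde replicate 1, and more than both with quantile normalization (-0.66 against -0.62 for PFK1 and -0.58 for PFK2). PFK1 signals were 12.3, 12.8 and 11.1 in untreated samples and 6.76, 7.21 and 7.50 with glycolaldehyde. Both replicates 3, scanned on the second day, lay nearest to the other group. PFK1 fell by 0.75 ± 0.07 (95% interval -0.92 to -0.58; adjusted p = 0.000165). The log2 change of PFK1 was -0.85 within scan day 1, with 2 samples against 2, and -0.56 within scan day 2, with 1 against 1. PFK2 signals were 8.55, 8.67 and 8.64 in untreated samples and 5.04, 5.51 and 5.39 with glycolaldehyde. The untreated samples were nearly equal, and every treated sample was lower. PFK2 fell by 0.70 ± 0.06 (95% interval -0.83 to -0.57; adjusted p = 6.56e-05), with -0.71 and -0.68 on the separate scan days.

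The subunit genes did not separate from each other. Their log2 difference moved by -0.05 between groups, where the SD within groups was 0.0845 (exact permutation p = 0.5), and it stayed between -0.11 and -0.01 when each sample was left out in turn. By rank among 5971 tested genes, PFK1 had the 196th largest fall and PFK2 the 236th.

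The 6-phosphofructo-2-kinase genes moved in opposite directions. PFK26 signals were 0.278, 0.264 and 0.276 in untreated samples and 0.331, 0.319 and 0.324 with glycolaldehyde, a small shift with tight groups. PFK26 rose by 0.25 ± 0.05 (adjusted p = 0.00484). PFK27, whose transcript is known to be induced by glucose, had signals of 0.582, 0.600 and 0.582 in untreated samples and of 0.365, 0.402 and 0.448 with glycolaldehyde. The treated samples spread more widely than the untreated ones, and glycolaldehyde replicate 3 lay nearest to them. PFK27 fell by 0.54 ± 0.08 (adjusted p = 0.00103); the change was -0.62 within scan day 1 and -0.37 within scan day 2. Within arrays, PFK26 shifted against PFK27 by 0.79, with an SD within groups of 0.125 and no overlap (exact permutation p = 0.1, adjusted 0.15).

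FBP26 encodes fructose-2,6-bisphosphatase, which breaks down the product of both kinases. Its signals were 0.689, 0.66 and 0.774 in untreated samples and 0.773, 0.794 and 0.804 with glycolaldehyde. Untreated replicate 3 overlapped the treated group. FBP26 had a log2 change of 0.16 ± 0.07 and did not pass (adjusted p = 0.0865). It passed in 8 of the 23 fits, among them those with the replicate number as a block (adjusted p = 0.0361), of the 4 agreed arrays (change 0.24, adjusted p = 0.0248) and without untreated replicate 3 (change 0.23, adjusted p = 0.00974). It did not pass in 15, among them those with the slide as a fixed block (adjusted p = 0.0596) and with same-day replicates averaged (adjusted p = 0.131). The 4 agreed arrays, and the fit without untreated replicate 3, hold no untreated sample of scan day 2. The change of FBP26 was 0.22 within scan day 1 and 0.05 within scan day 2. PFK27 shifted against FBP26 by -0.70 within arrays, with an SD within groups of 0.13 and no overlap (exact permutation p = 0.1, adjusted 0.15).

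FBP1, fructose-1,6-bisphosphatase of gluconeogenesis, had signals of 0.152, 0.140 and 0.136 in untreated samples and of 0.0935, 0.0918 and 0.0876 with glycolaldehyde. All treated samples lay below all untreated ones. FBP1 fell by 0.64 ± 0.06 (adjusted p = 0.000161), with -0.65 and -0.63 on the separate scan days. Phosphofructokinase and fructose-1,6-bisphosphatase catalyse opposite reactions, and the genes PFK1 and FBP1 both fell. Their log2 difference moved by -0.11, about its SD within groups of 0.113, with overlap between groups (exact permutation p = 0.4, adjusted 0.48). The median spot of the FBP1 probe was 30.8 to 57.6 times as bright as the background beside it.

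Each probe was printed in 7 spots per array, and all 378 spots of the 9 genes over the 6 arrays were well above background. The coefficient of variation between the 7 spots of 1 probe on 1 array ran from 0.941% to 7.01%. Only 4 of the 378 spots were marked as outliers, 2 of PGI1 and 2 of PFK27. Between replicates of a group, the SD of log2 differences over genes was 0.0992 and 0.107 for arrays of the same scan day and 0.183 to 0.212 across days.

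**Figure D3:**
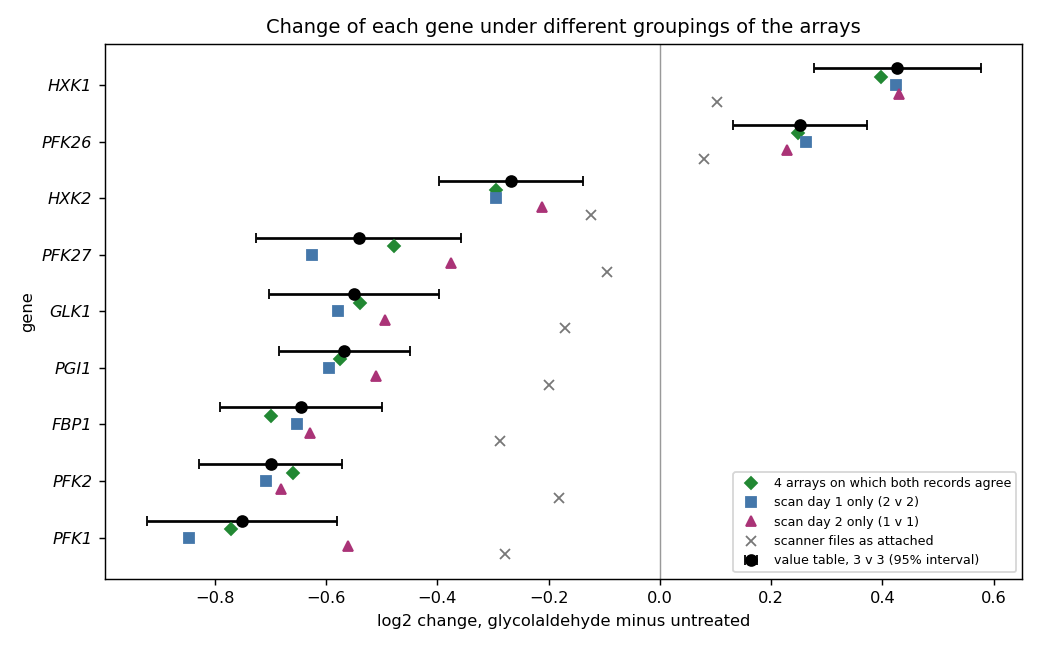
Log2 change of each gene, glycolaldehyde minus untreated, in the value-table grouping with its 95% interval (black), in the 4 arrays on which both records agree, within each scan day, and with the scanner files as attached (crosses). Signs agree in every grouping drawn; sizes with the scanner files as attached lie nearer to 0, from -0.29 to 0.10.

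Directions were the same without the 2 arrays whose group is in dispute. In the 4 agreed arrays alone, where 48.2% of all genes were called (26.2% higher, 22.1% lower), all 9 genes passed in the same directions. Of these 4, only glycolaldehyde replicate 3 was scanned on day 2 and lay on slide 3. Treatment is thus partly confounded with scan day and slide in the fit of the agreed arrays. There PFK1 had a log2 change of -0.77 ± 0.07, PFK2 -0.66 ± 0.06, FBP1 -0.70 ± 0.07 and PGI1 -0.57 ± 0.06. HXK1 had a change of 0.40 ± 0.08 and PFK26 one of 0.25 ± 0.07, with the largest adjusted p of the set, 0.025. The fits below hold at least 1 of the 2 arrays in dispute. All 9 genes passed in the same directions within scan day 1, which includes glycolaldehyde replicate 1. There 69.6% of all genes were called (39.7% higher, 29.9% lower). The 9 also passed with the replicate number as a block, where 65.4% of all genes were called (36.5% higher, 28.9% lower). With quantile normalization all 9 passed where 54.1% were called (28.9% higher, 25.2% lower). A pair of further fits had 1 residual degree of freedom each, and their calls are no gene-level support. Within slide 2, with untreated replicate 2 against glycolaldehyde replicates 1 and 2, no spread between untreated samples was measured; PFK1 was at -0.88 and HXK1 at 0.45, and limma called 61.1% of all genes (34.6% higher, 26.5% lower), the 9 included. With same-day replicates averaged and the scan day as a block, the standard errors of the 9 genes were nearly equal, from 0.0766 to 0.0793, since the spread was pooled over genes; 57.7% of all genes were called (31.6% higher, 26.1% lower), the 9 included.

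Genes that feed from, regulate or continue the pathway were read from 8 further lists with 73 genes. Their counts are to be read against all tested genes, of which 29.6% rose and 23.4% fell. Of 11 genes of lower glycolysis, from aldolase to pyruvate kinase, 3 fell, 0 rose and 8 did not pass (median -0.15, against 0.03 over all tested genes). The 27.3% that fell is near the share of all genes. FBA1, TPI1, PGK1, GPM1 and CDC19, which did not pass, had standard errors of 0.11 to 0.14, against 0.05 to 0.08 for the 9 upper glycolysis genes. In these 5 genes replicate 3, scanned on the second day, was the lowest of both groups. Not passing therefore does not show an unchanged level. The largest fall was that of PYK2, the minor pyruvate kinase, by 0.46 ± 0.08; ENO1, an enolase, fell by 0.30 ± 0.06 and TDH2, a glyceraldehyde-3-phosphate dehydrogenase, by 0.16 ± 0.05. With the replicate number as a block 7 of the 11 fell, and 6 fell without untreated replicate 3. The median of the 9 upper glycolysis genes was -0.55, and the difference between these lists was not tested.

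Other genes that serve or regulate gluconeogenesis, the route of FBP1, and the glyoxylate cycle were mostly lower. Of 9 genes 7 fell (77.8%) and 0 rose (median -0.43). The list holds genes of enzymes, a permease and transcription factors, and genes of each kind fell. In the 4 agreed arrays 7 fell, and 5 to 7 fell when 1 sample was left out. 1 rose with the replicate block, with normexp background, in the 4 agreed arrays and without untreated replicate 3. CAT8, the transcription activator of gluconeogenic genes, fell the most, by 0.95 ± 0.08, and PCK1, phosphoenolpyruvate carboxykinase, fell by 0.76 ± 0.10. Of 10 genes that lead hexose phosphates into storage, cell wall and the pentose phosphate pathway, 6 fell (60%) and 1 rose (median -0.22). For this list 4 fell in the 4 agreed arrays, and 4 to 7 when 1 sample was left out. GSY2, the main glycogen synthase, fell by 0.75 ± 0.12. ZWF1, glucose-6-phosphate dehydrogenase, rose by 0.39 ± 0.06.

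Of 6 transcription factors known to act on glycolytic genes, 3 fell (50%) and 0 rose (median -0.15). TYE7, a basic helix-loop-helix activator of glycolytic genes, fell by 0.77 ± 0.07. GCR1, the main activator of glycolytic genes, fell by 0.50 ± 0.07, and RAP1, which binds beside it and also acts at ribosomal protein genes and telomeres, fell by 0.28 ± 0.06. GCR2, REB1 and ABF1 did not pass, with changes of -0.02, 0.06 and 0.18.

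Among 17 regulators of glucose repression and glucose sensing, 3 rose (17.6%) and 5 fell (29.4%), shares below and near those of all genes (median -0.04). MTH1, a co-repressor of hexose transporter genes, rose by 0.79 ± 0.11, and RGT1, the repressor it works with, fell by 0.50 ± 0.08. In the 4 agreed arrays 2 rose and 5 fell. The number that rose was 1 with quantile normalization and without untreated replicate 1, glycolaldehyde replicate 1 or glycolaldehyde replicate 2. The number that fell was 3 without glycolaldehyde replicate 2. Of 8 genes of the GID ubiquitin ligase, which marks fructose-1,6-bisphosphatase for degradation when glucose returns, 5 fell (62.5%) and 1 rose (median -0.23). VID24, the subunit that recognises the substrate, fell by 0.48 ± 0.07, and FYV10, another subunit gene, rose by 0.24 ± 0.07. In this list 3 fell in the 4 agreed arrays, and also without untreated replicate 1, glycolaldehyde replicate 1 or glycolaldehyde replicate 2. FYV10 did not pass without untreated replicate 2 or without glycolaldehyde replicate 1 or 2. Of 9 genes of the RAS and protein kinase A pathway, 6 fell (66.7%) and 1 rose (median -0.27). PDE2, the high-affinity cAMP phosphodiesterase, fell by 0.54 ± 0.09, and the kinase subunit gene TPK3 rose by 0.18 ± 0.06. In the 4 agreed arrays and with median subtraction, 0 genes of this list rose. The same held when untreated replicate 1, untreated replicate 3 or any glycolaldehyde sample was left out.

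**Figure D4:**
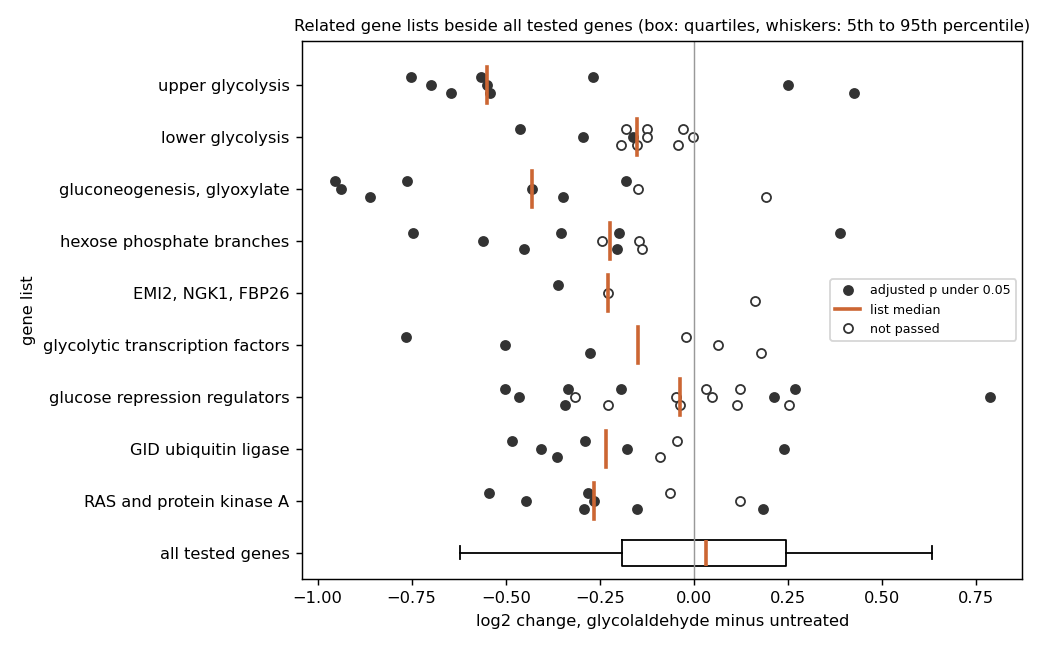
Log2 change, glycolaldehyde minus untreated, of the 9 upper glycolysis genes and of the genes of 8 related lists, with all tested genes as a box (quartiles; whiskers from the 5th to the 95th percentile). Filled points passed limma at an adjusted p under 0.05 and coloured lines are medians: the upper glycolysis median is -0.55, the lower glycolysis median -0.15 and that of all tested genes 0.03.

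Profiles over the 6 arrays were also compared with those of all named genes, by the root mean square difference of log2 values centred on each gene's mean. Nearest to PFK1 were ILV3, dihydroxyacid dehydratase of branched-chain amino acid synthesis (0.0296), and BUD31 (0.0309). Nearest to PFK2 were FAS1, the β subunit of fatty acid synthase (0.029), and SIM1 (0.0331). PGI1 lay nearest to BUD14 (0.016) and MCH5 (0.0203), and GLK1 to ACH1 (0.032) and the ribosome-associated chaperone SSB1 (0.0334). HXK1 lay nearest to IRC3 (0.0213) and MTQ1 (0.0268), HXK2 to DPH5 (0.0219) and NUP100 (0.0243), PFK26 to MTF2 (0.0185) and AME1 (0.0218), and PFK27 to MYO5 (0.026) and ARE1 (0.0338). FBP1 had the most distant neighbours of the 9 genes, SPC24 (0.0343) and GZF3 (0.0467). Only the 2 nearest genes were kept for each, so the absence of other genes of the set among them says little. The distance includes the size of the treatment change, which was -0.75 for PFK1 and -0.72 for ILV3. Shared regulation was not tested.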

How the data were processed

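RNA of 3 untreated and 3 glycolaldehyde samples was read on 1-colour arrays (Agilent design 015072). Spot intensities were made by the authors with Agilent Feature Extraction 11.0.1.1, per the file headers, which subtracted background and removed the spatial trend. The submitters' processing notes also list R 3.0.2, with no use stated. The deposited value table holds, as an intensity on a linear scale, the average over the 7 spots that carry a probe on each array, neither centred nor normalized between arrays; its column medians were 3545, 3346 and 4612 (untreated replicates 1 to 3) and 3307, 3373 and 5055 (glycolaldehyde). 0 columns were left unmapped.

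The log2 value minus the array's 75th percentile was compared between treatments, with no covariate, by limma 3.58.1 (lmFit, eBayes; R 4.3.3). Tests were two-sided, and p-values were adjusted over all tested genes (Benjamini-Hochberg). A probe was tested when over 0.5 of its spots were well above background on at least 3 arrays, and the brightest probe of a gene was kept. The fit was also run on data simulated for this comparison over 5971 genes. It called 40 of 50 genes with a true log2 change of -0.5, 37 of 50 at 0.5, 47 of 50 at -1 and 48 of 50 at 1. Of 5771 unchanged genes it called 17. The simulated noise was independent between arrays, without the shared scan-day spread, and far fewer genes were changed than were called here. These rates therefore need not hold for the measured data. Names come from the RefSeq table of assembly R64; the array annotation follows an older build, so no coordinates are given, and sequences were not used here. The members, lists and grouping were chosen with earlier results of these data known. Named from the lists were the largest called rise and fall and every gene of the list with EMI2, NGK1 and FBP26; ENO1, TDH2, GCR1, RAP1, PCK1, GCR2, REB1 and ABF1 were added after their values were seen.

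Replicate numbers are shared by the groups. Deviations from the group means of same-numbered samples correlated with 0.32, 0.402 and 0.622 over 5971 genes. Each exceeded 0.1, and same-numbered samples were treated as pairs in the blocked fit. The data do not tell replicates 1 and 2 apart: untreated replicate 1 correlated more with glycolaldehyde replicate 2 (0.53), and untreated replicate 2 with glycolaldehyde replicate 1 at 0.243. The pairing otherwise has no source in the labels beyond the shared number, and replicate 3 of both groups shares a slide and scan day. The alternatives changed the array record, the pairing, averaging of spots, normalization, background, filter, scan day, slide, variance prior, probe choice and samples; the value within slide 2 was added after seeing the data. Normexp used the median spot signal because the files hold no mean signal.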

Additional observations from a re-analysis of the deposited data

How the results depend on the processing

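The 23 fits include the main one and leave out the scanner files as attached. In all 23, the 9 genes passed in the same direction (largest limma adjusted p 0.0268, for HXK2 with quantile normalization). Of these fits 2, within slide 2 and with same-day replicates averaged, have 1 residual degree of freedom. Every scaling used aligns the arrays with each other, so a median change near 0 over all genes follows from it. A shift of all transcripts together was not tested. The replicate block changed no call of the 9 genes. Of the 73 pathway-list genes, 6 rose in the main fit and 10 with the block. Over all tested genes, 29.6% and 36.5% rose. The pathway-list genes that fell numbered 36 and 45, where 23.4% and 28.9% of all tested genes fell. With the scanner files as attached, limma called 0 genes higher and 0 lower, with 0 of the 9 genes and 0 of the pathway-list genes (smallest adjusted p 0.92). The log2 changes were then 0.10 for HXK1, -0.12 for HXK2, -0.17 for GLK1, -0.20 for PGI1, -0.28 for PFK1, -0.18 for PFK2, 0.078 for PFK26, -0.095 for PFK27 and -0.29 for FBP1. The shift within arrays was then 0.23 for HXK1 against HXK2, -0.045 for GLK1 against HXK2, 0.17 for PFK26 against PFK27, -0.26 for PFK27 against FBP26, and 0.0099, a turned sign, for PFK1 against FBP1, which was 0.036 with quantile normalization. That alternative exchanges 2 arrays between the groups. Within scan day 2 alone, a value with no test, HXK2 was at -0.21, PGI1 at -0.51, PFK1 at -0.56 and PFK27 at -0.37; the cause was not tested. Leaving out 1 sample at a time gave 2 to 8 of the 73 pathway-list genes that rose and 27 to 37 that fell. Of all 5971 tested genes, 1357 to 1882 then rose and 1118 to 1491 fell.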

Other observations

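The genes next to each of the 9 on the chromosome, by the order of genes in the R64 table, were looked at after the other results were known. Of 18 such neighbours 15 were tested; 4 were called in the direction of the gene beside them, 3 in the opposite direction, and 8 did not pass. The 46.7% called is below the 53% of all tested genes. RPN12, a proteasome subunit gene beside HXK1, rose by 0.67 ± 0.06, and PEX21, a peroxisomal import gene beside PFK1, fell by 0.43 ± 0.06. GID7, a subunit gene of the GID ubiquitin ligase beside GLK1, fell by 0.18 ± 0.06, and the uncharacterised YMR206W beside PFK2 fell by 0.29 ± 0.09. The neighbours that opposed were FZF1, the activator of the sulfite exporter gene, which rose by 0.30 ± 0.06 beside HXK2, BSC6, which rose by 0.44 ± 0.08 beside PFK27, and PSY3, which rose by 0.24 ± 0.08 beside FBP1.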
